A study of Homo sapiens with 10 samples.

Results

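The cytosolic ribosomal protein genes were followed through a 6 h time course in MOLT-4 cells, an established line from a human T-cell acute lymphoblastic leukaemia. Probe sets were taken as members where the platform annotation gave them 1 symbol and that symbol was RPL or RPS with a number, or one of RPLP0, RPLP1, RPLP2, RPSA and FAU. Of 90 such probe sets, 78 passed the filter on low values, a deposited value of at least 25 on at least 2 of 10 arrays, and these stand for 52 genes. They were 78 of the 4276 probe sets tested, out of 22215 that are not array controls, with 32 for the small (40S) and 46 for the large (60S) subunit. The other 12 were below the filter on all 10 arrays, and each belongs to a gene that has a member. Just inside the filter was RPL35A 215208_x_at, at 4.33 and 4.81 on the 0 h arrays, and just outside was RPL31 221593_s_at, between 4.64 and 4.95, both as square roots of the deposited values.

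MABL is an antibody to CD47, a widely expressed surface protein that binds SIRPA on phagocytes. Cells were treated for 0, 0.5, 1, 3 or 6 h, with 2 arrays per time. On all 10 arrays the agents named are GAM at 50 ug/mL, which is not spelled out, and MABL at 10 ug/mL, so the 0 h arrays share both. Time-matched cells without antibody were not analysed here, so time after the wash and time with the antibody cannot be told apart. All 10 arrays come from 1 cell line, and nothing in the labels says that the 2 arrays of a time came from separate cultures. The p-values therefore measure the spread between these arrays, which may be technical.

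A ribosome joins a 40S and a 60S particle, each a scaffold of ribosomal RNA carrying a fixed set of proteins. The mRNAs of these proteins are abundant and long-lived, and most begin with a 5' terminal oligopyrimidine (TOP) tract. Through this tract LARP1 and the mTOR kinase pathway set how well the mRNAs are translated and protect them from decay, so control of these genes is often at translation, which arrays do not measure. Several members have further roles in T-cell leukaemia and anaemia, named with their values.

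The tract is the feature that joins the members in sequence, and the windows here show it in genes with different time courses. Each window is from RefSeq promoters on GRCh38.p14, runs 5' to 3' and holds 15 bases before the annotated transcript start and 15 from it. Capitals mark the tract, a C at the start followed by at least 4 further C or T, and a window without capitals has no such tract at its start. RPS6, RPS24, RPL14 and RPL24 are genes that fell at 1 h and carry the tract; in RPL10A, which also fell, a pyrimidine run lies a few bases past the annotated start.
RPS6 (chr9:19380222-19380251, minus strand): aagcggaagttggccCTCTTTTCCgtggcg
RPS24 (chr10:78033848-78033877, plus strand): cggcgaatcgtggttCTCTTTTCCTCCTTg
RPL14 (chr3:40457324-40457353, plus strand): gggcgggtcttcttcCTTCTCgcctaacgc
RPL24 (chr3:101686704-101686733, minus strand): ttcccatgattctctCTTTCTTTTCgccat
RPL10A (chr6:35468386-35468415, plus strand): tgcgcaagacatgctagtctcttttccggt
The next windows are from genes that passed no test (FAU and RPS3) and from genes called higher at 1 h (RPLP2 and RPL27A).
FAU (chr11:65122120-65122149, minus strand): cgccctcgcttcttcCTCTTTCTCgactcc
RPS3 (chr11:75399503-75399532, plus strand): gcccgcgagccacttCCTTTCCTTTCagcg
RPLP2 (chr11:809952-809981, plus strand): ttgcgtcggcgccttCCTTTTCCTCCCTgt
RPL27A (chr11:8682777-8682806, plus strand): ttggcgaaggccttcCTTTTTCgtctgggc
Tracts of the same kind thus stand at the start of genes that fell, genes that rose and genes that passed no test. RPL6, which fell furthest at 1 h, had no tract at an annotated start, nor had RPL9, RPL19 and RPS4X, which were also called lower. In RPL19, however, a pyrimidine run spans an annotated start, and in RPL9 a run lies a few bases past it.

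A promoter entry was present for 46 of the 52 member genes, and 34 of these (73.9%) had the tract at an annotated start on the strand that reads like the mRNA. Over all genes in the RefSeq table the share was 1404 of 27305 (5.14%). When the tract could begin up to 5 bases either side of the start, the shares were 40 of 46 (87.0%) and 6886 of 27305 (25.2%). Among genes whose brightest probe set was called lower at 1 h, 5 of 10 (50.0%) had the tract at the start, against 4 of 5 (80.0%) called higher and 25 of 31 (80.6%) not called. With the wider window these shares were 7 of 10, 5 of 5 and 28 of 31. The differences between the 3 groups were not tested, and a match is a description of these letters only.

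**Figure D1:**
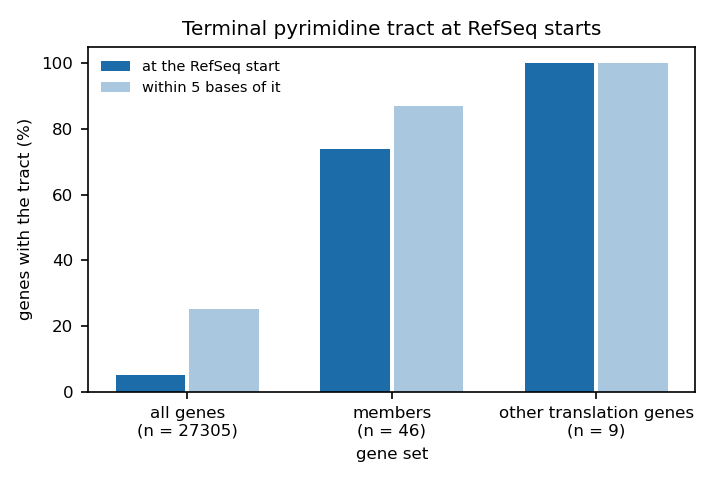
Share of genes (%, vertical axis) with a terminal pyrimidine tract at an annotated RefSeq start (dark bars) or within 5 bases of one (light bars), for all 27305 genes with a promoter entry, 46 member genes and 9 other translation genes. The tract was at the start in 5.14% of all genes and 73.9% of member genes. The other translation genes were listed in part because they are known to carry the tract, so their bars were largely fixed by that choice.

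The T-lineage label held on the arrays. Of 15 T-lineage markers, 11 had a tested probe set, with CD3D at 12.35, TRBC1 at 14.11 and LCK at 10.30 (0 h means on the log2 scale), while CD2, CD4, CD7 and PTPRC were below the filter. None of the 4 B-cell, 4 myeloid and 1 erythroid markers on the array passed it. Some technical measures moved with time. The mean of the 18 spike-in control probe sets that passed the filter was higher than at 0 h by 0.27, 0.25, 0.77 and 0.64 at 0.5, 1, 3 and 6 h, the 18S ribosomal RNA probe sets by 1.41, 1.65, 2.17 and 2.63, and the array median over tested probe sets changed by -0.13, -0.29, -0.31 and -0.25. Their part in the results was not tested. Counts are therefore also given after setting the array medians equal, or the spike-in means equal, which moved the median change of all tested probe sets to 0.14, 0.26, 0.17 and 0.11, or to -0.26, -0.27, -0.91 and -0.78.

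On the deposited scale a subset of ribosomal protein mRNAs fell within 1 h and was higher again at 6 h, with a share called lower at 1 h that was near that of all tested probe sets. RPL6, RPL7, RPL14, RPS6, RPS24 and RPL23A fell by 0.74 to 1.65 on the log2 scale at 1 h, about 1.67-fold to 3.14-fold, on the probe sets described below. Calls use limma with Benjamini-Hochberg adjustment over all 4276 probe sets and an adjusted p under 0.05. At 28 genes no probe set was called in any of the 5 comparisons made one by one; counted by probe set, 47 of 78 (60.3%) had no call, beside 50.1% of all tested, and these shares were 28.2% and 26.3% with equal array medians and 15.4% and 9.75% with equal spike-in means, scalings described below. The comparisons with 0 h share the 2 arrays at 0 h.

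At 0.5 h, 14 of 78 members (17.9%) were called lower, against 15.1% of all tested probe sets, and 4 (5.13%) higher, against 1.92%. None of these calls was left without 0 h replicate 1 or without 0.5 h replicate 2, where the counts were 0 lower and 0 higher. At 1 h, 20 members (25.6%) from 14 genes were lower, against a background of 24.2%, and 9 (11.5%) were higher, against 4.14%. At 3 h, 3 (3.85%) were lower, against 26.4%, and 9 (11.5%) higher, against 2.53%. At 6 h, 3 (3.85%) were lower, against 21.6%, and 7 (8.97%) higher, against 4.07%. The F test over all times called 22 members (28.2%), against 39.6%. So the shares called lower at 0.5 and 1 h were near the background, and those at 3 and 6 h were below it.

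The split between higher and lower calls depended on the array scaling. With equal array medians, 36 members were higher and 11 lower at 1 h (46.2% and 14.1%, against 32.5% and 19.5% of all tested), and 34 were higher and 1 lower at 3 h (43.6% and 1.28%, against 23.1% and 17.8%). With equal spike-in means, 0 were higher and 16 lower at 1 h (20.5%, against 27.1%), and 0 were higher and 64 lower at 3 h (82.1%, against 86.4%). At 6 h equal array medians gave 22 higher (28.2%, against 14.3%) and 0 lower (against 14.1%), and equal spike-in means 0 higher (against 0.748%) and 39 lower (50%, against 69.8%). At 0.5 h they gave 7 higher and 9 lower (8.97% and 11.5%, against 6.9% and 15.3%), and 0 higher and 12 lower (15.4%, against 21%). A further quantile normalization called 7.69%, 17.9%, 14.1% and 11.5% higher at 0.5, 1, 3 and 6 h, against 7.81%, 24%, 19.2% and 11.8% of all tested. It called 14.1%, 19.2%, 1.28% and 2.56% lower, against 14.9%, 20.3%, 18.7% and 14.8%. Under it the share called higher was near that of all tested at 0.5 and 6 h and below it at 1 and 3 h. At an unadjusted p under 0.05, limma gave 0 members higher at any time with equal spike-in means, and 2 lower at 6 h with equal medians. The shares of all tested were not computed for these unadjusted counts, nor for the counts with an array left out. Without 0 h replicate 1, 1 member was called higher at 1 h and 3 at 6 h, and the 3 lower calls at 3 h and at 6 h became 0. The lower calls were also 0 at 3 h without 3 h replicate 2 and at 6 h without 6 h replicate 1.

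The median change of the members was 0.01, 0.06, 0.02 and 0.03 at 0.5, 1, 3 and 6 h, beside 0.01, -0.03, -0.15 and -0.14 over all tested probe sets. With equal spike-in means it was -0.26, -0.19, -0.74 and -0.60, beside -0.26, -0.27, -0.91 and -0.78. With equal array medians it was 0.14, 0.35, 0.33 and 0.28, beside 0.14, 0.26, 0.17 and 0.11. On the deposited scale the members' mean change was -0.08 and -0.09 at 0.5 and 1 h, of the opposite sign to the median, since a tail of members moved far down. The mean over all tested probe sets was lower still, at -0.15 and -0.25, so such a tail was not particular to the members. The changes lay within 0.25 of 0 for 53.8% of members at 1 h, beside 50.1% of all tested, and for 75.6% at 3 h and at 6 h, beside 48.8% and 46.9%. These shares rest on the scaling: at 3 and 6 h they were 28.2% and 34.6% with equal array medians, beside 32.2% and 40.7%, and 7.69% and 10.3% with equal spike-in means, beside 1.5% and 5.4%. By subunit, 7 of 32 probe sets of the 40S and 13 of 46 of the 60S were lower at 1 h, with median changes of 0.12 and 0.01. These shares lay on either side of the 24.2% of all tested, and the difference between subunits was not tested.

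**Figure D2:**
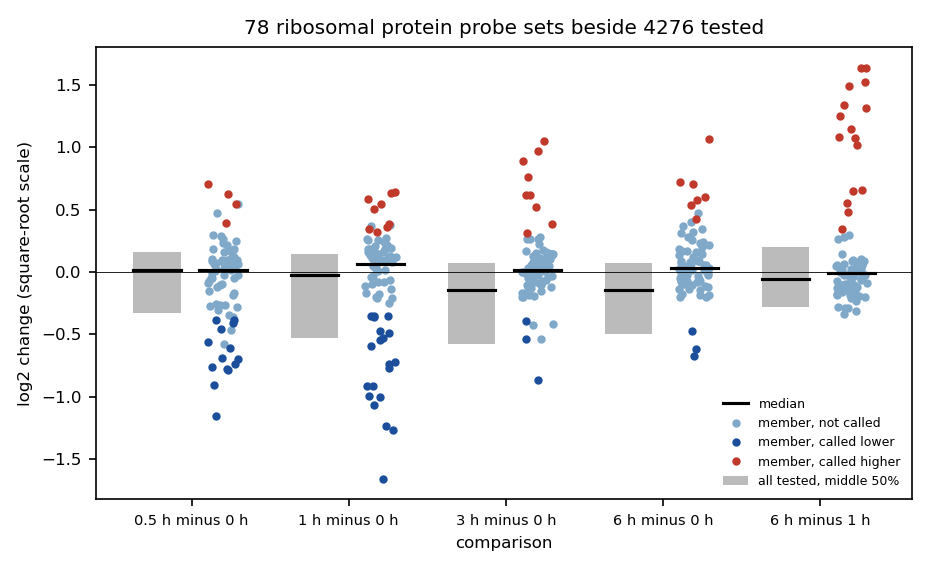
Log2 change (vertical axis, square-root scale) of each of the 78 members (points) in 5 comparisons (horizontal axis), beside the middle 50% of all 4276 tested probe sets (grey boxes), with medians as black lines. Dark blue and red points are members called lower and higher; at 1 h, 20 members were lower and 9 higher, a split that turned to 0 higher and 16 lower with equal spike-in means, and to 36 and 11 with equal array medians.

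RPL6, a protein of the 60S particle, fell furthest of the 78 members at 1 h. Its log2 levels were 12.27 and 11.97 at 0 h, 11.03 and 10.92 at 0.5 h, 10.59 and 10.35 at 1 h, 11.49 and 11.02 at 3 h and 11.97 and 12.02 at 6 h. Every array at 0.5, 1 and 3 h was below both 0 h arrays, and the 6 h arrays overlapped them. The change was -1.15 (SE 0.175, adjusted p = 0.00611) at 0.5 h and -1.65 (SE 0.175, adjusted p = 0.0008) at 1 h, 3.14-fold lower. At 3 h it was -0.87 (SE 0.175, adjusted p = 0.00902), a call lost without 0 h replicate 1 or 3 h replicate 2, and at 6 h it was -0.13 (SE 0.175, adjusted p = 0.627).

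RPL7, also an RNA-binding protein of the 60S particle, was read by 2 probe sets. On 200717_x_at its log2 levels were 12.21 and 12.41 at 0 h, 11.40 and 11.42 at 0.5 h, 11.04 and 11.04 at 1 h, 12.10 and 11.45 at 3 h and 12.65 and 12.70 at 6 h. The 0.5 h and 1 h arrays were all below both 0 h arrays, and the 3 h arrays differed from each other. Both 6 h arrays were above 0 h, a difference that was not called. The change at 1 h was -1.27 (SE 0.189, adjusted p = 0.00208), 2.41-fold lower, and 212042_x_at gave -1.23 (SE 0.173, adjusted p = 0.00165).

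RPL14, another 60S protein, had 3 tested probe sets. On the brightest, 213588_x_at, the log2 levels were 12 and 11.77 at 0 h, 11.25 and 11.40 at 0.5 h, 10.96 and 10.98 at 1 h, 12.05 and 12 at 3 h and 12.50 and 12.43 at 6 h. Both arrays at 0.5 h and at 1 h were below the 0 h arrays, and both at 6 h were above them, a change of 0.58 (adjusted p = 0.00838) whose call was lost without 6 h replicate 1 and which turned to -0.054 with equal spike-in means. The change at 1 h was -0.91 (SE 0.112, adjusted p = 0.00113), and on 200074_s_at it was -1.07 (SE 0.143, adjusted p = 0.00149). On the dim 219138_at it was -0.25 (SE 0.162, adjusted p = 0.3), and this probe set was instead higher at 3 h, by 1.05 (SE 0.162, adjusted p = 0.00364), and at 6 h, by 1.06 (SE 0.162, adjusted p = 0.00365), 2 calls lost with equal spike-in means.

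RPL23A sits at the exit of the tunnel through which the new protein chain leaves the ribosome. Its log2 levels were 13.87 and 13.61 at 0 h, 13.17 and 13.10 at 0.5 h, 13.05 and 12.96 at 1 h, 13.74 and 13.76 at 3 h and 13.94 and 14.10 at 6 h. Arrays at 0.5 and 1 h lay below both 0 h arrays, and those at 3 h lay between them. The change at 1 h was -0.74 (SE 0.118, adjusted p = 0.00275).

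In the small subunit, RPS6 is the protein that S6 kinases phosphorylate downstream of mTOR, and its 3 tested probe sets fell together. On the brightest, 209134_s_at, log2 levels were 13.44 and 13.09 at 0 h, 12.60 and 12.41 at 0.5 h, 12.27 and 12.29 at 1 h, 13.12 and 13.02 at 3 h and 13.31 and 13.39 at 6 h. No array at 0.5 or 1 h reached the lower 0 h array. The change at 1 h was -0.99 (SE 0.136, adjusted p = 0.00159), with -0.997 (SE 0.122, adjusted p = 0.00113) on 200081_s_at and -0.77 (SE 0.144, adjusted p = 0.00551) on 201254_x_at.

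RPS24 is one of the genes mutated in Diamond-Blackfan anaemia, an inherited failure of red cell production. It stood at 13.36 and 13.16 at 0 h, 12.58 and 12.56 at 0.5 h, 12.31 and 12.39 at 1 h, 13.21 and 13.03 at 3 h and 13.47 and 13.52 at 6 h on the log2 scale. Its arrays at 0.5 and 1 h were all below the 0 h arrays. Those at 6 h were above them, a difference that was not called. The change at 1 h was -0.91 (SE 0.111, adjusted p = 0.00113).

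The 10 probe sets of these 6 genes just given as lower at 1 h kept that call under all 19 alternatives run on single genes, which included both scalings and each array left out. Their calls at 0.5 h did not hold without 0 h replicate 1 or 0.5 h replicate 2. The 6 genes were picked out after their values were seen.

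**Figure D3:**
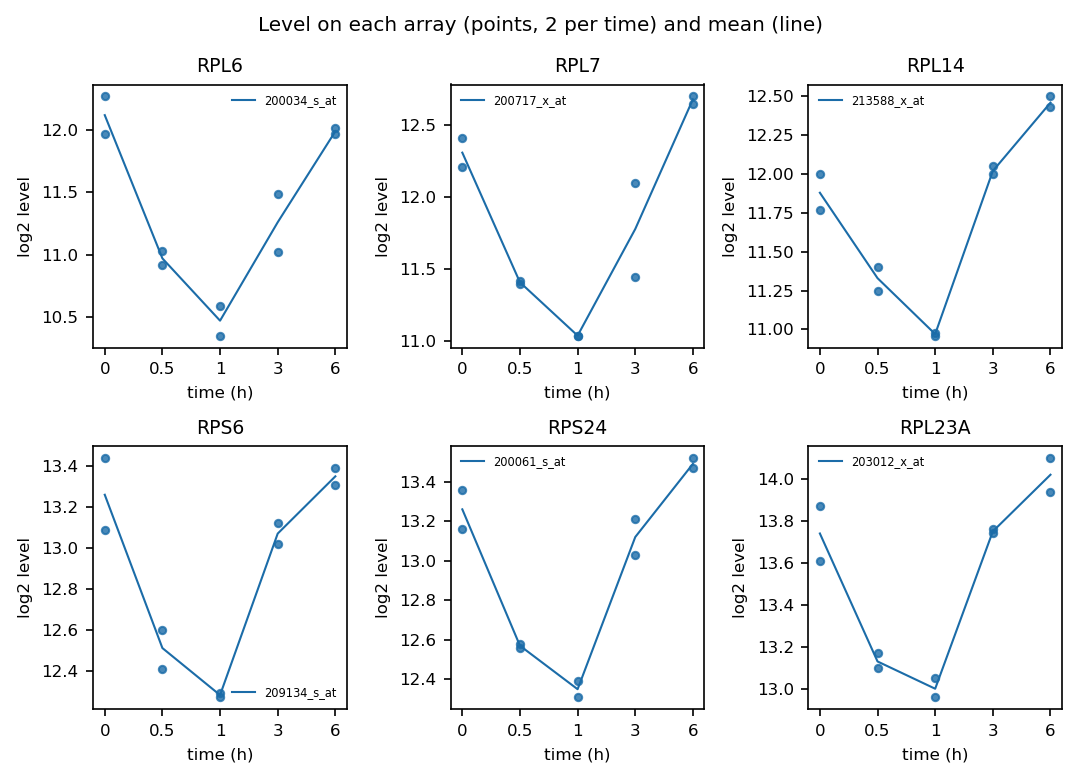
Log2 level (vertical axis, square root of the deposited value) at each time in hours (horizontal axis, times evenly spaced) of 1 probe set each for RPL6, RPL7, RPL14, RPS6, RPS24 and RPL23A, with 1 point per array and a line through the means. In every panel both 1 h arrays lie below both 0 h arrays, and the changes at 1 h ran from -0.74 (RPL23A) to -1.65 (RPL6).

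Further genes were called lower at 1 h by smaller amounts. RPL10A fell by 0.59 and RPL9 by 0.55, and both calls were lost with equal array medians alone. RPL24 fell on both its probe sets, by 0.49 and 0.35, RPS25 by 0.47, RPL19 by 0.36 and RPS4X by 0.35. RPS25 is needed when some viral RNAs recruit the ribosome directly. The calls of RPL19, RPS4X and the second RPL24 probe set were lost under both equal array medians and equal spike-in means, and those of RPS25 and the brighter RPL24 probe set with equal array medians. Single arrays also decided calls: that of RPL19 was lost on leaving out any 1 array but 0 h replicate 2, that of RPS4X on leaving out either array at 0, 1 or 6 h, that of RPS25 without 0 h replicate 2 or 1 h replicate 2, and those of RPL24 without 0 h replicate 1 on one probe set and without 0 h replicate 2 or either 1 h array on the other.

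From 1 h to 6 h, a comparison added after the data were seen, 16 members (20.5%) from 10 genes were higher, against 12.2% of all tested probe sets, and 0 (0%) were lower, against 11.7%. The limma fit gave 5 members lower at an unadjusted p under 0.05, and a fit on the untransformed values called 5. The shares of all tested were not computed for these counts. A further quantile normalization called 3 lower (3.85%, against 13.7% of all tested). This comparison shares its 1 h arrays with the 1 h comparison, so genes low on those arrays are favoured. RPL7 rose by 1.64 (SE 0.189, adjusted p = 0.000992), 3.11-fold, RPL6 by 1.52 (SE 0.175, adjusted p = 0.000986) and RPL14 by 1.49 (SE 0.112, adjusted p = 0.000166) on 213588_x_at. RPS6 rose by 1.07 (SE 0.136, adjusted p = 0.00137) on its brightest probe set, RPS24 by 1.14 (SE 0.111, adjusted p = 0.000516) and RPL23A by 1.02 (SE 0.118, adjusted p = 0.001). With equal spike-in means 8 members were higher and 1 lower (10.3% and 1.28%, against 6.27% and 21.3% of all tested); RPL6, RPS24, both RPL7 and all 3 RPL14 probe sets kept the call, as did RPS6 200081_s_at, while RPS6 209134_s_at (0.69, adjusted p = 0.0545) and RPL23A (adjusted p = 0.0778) did not and RPL9 turned to -0.036.

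On the deposited scale, genes called higher outnumbered those called lower at 3 h, by 9 to 3, and at 6 h, by 6 to 2. They did not at 0.5 or 1 h, where they were 4 against 10 and 9 against 14. Of all tested probe sets, 2.53% were higher and 26.4% lower at 3 h, and 4.07% and 21.6% at 6 h. With equal spike-in means the balance turned, to 0 member probe sets higher and 64 lower at 3 h and 0 and 39 at 6 h. RPLP2 and RPLP1 form the flexible stalk that recruits translation factors to the 60S particle. The log2 levels of RPLP2 were 10.07 and 10.08 at 0 h, 10.33 and 10.31 at 0.5 h, 10.51 and 10.65 at 1 h, 10.83 and 10.84 at 3 h and 10.50 and 10.84 at 6 h. Arrays at every later time were above both 0 h arrays. The change was 0.51 (SE 0.126, adjusted p = 0.0186) at 1 h, 0.76 (SE 0.126, adjusted p = 0.00457) at 3 h and 0.60 (SE 0.126, adjusted p = 0.0112) at 6 h, and with equal spike-in means it was 0.26, -0.00078 and -0.033. Leaving out either 0 h array, or 1 h replicate 2, also ended the 1 h call, and leaving out 0 h replicate 1 ended the 6 h call.

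RPLP1 changed by 0.32 (SE 0.1, adjusted p = 0.0464) at 1 h and by 0.31 (SE 0.1, adjusted p = 0.0484) at 3 h, calls that each failed in 15 of 19 alternatives. RPS28, a small protein of the 40S particle, was higher by 0.36 (SE 0.0996, adjusted p = 0.0289), 0.38 (SE 0.0996, adjusted p = 0.0234) and 0.43 (SE 0.0996, adjusted p = 0.0167) at 1, 3 and 6 h, and turned to -0.38 and -0.21 at 3 and 6 h with equal spike-in means. RPL27A was higher by 0.54 (SE 0.16, adjusted p = 0.0365) at 1 h and 0.61 (SE 0.16, adjusted p = 0.0237) at 3 h, the latter -0.15 with equal spike-in means. RPL35 was higher at 1 h by 0.35 (SE 0.111, adjusted p = 0.0494). Of the 9 higher calls at 1 h, 8 were lost without 0 h replicate 1 and the same 8 without 1 h replicate 2, the exception being RPS10 214001_x_at. Of the 9 at 3 h and the 7 at 6 h, 4 and 2 were kept whichever array was left out.

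Several other higher calls came from dimmer probe sets. Of 18 genes with more than 1 tested probe set, 6 (RPL14, RPL22, RPL35A, RPL37A, RPS10 and RPS21) had one that differed from the brightest by over 0.5 in a comparison with 0 h, and none had calls in opposite directions. RPL37A 214041_x_at was at 12.84 and 13.19 at 0 h, 13.67 and 13.77 at 0.5 h, 13.73 and 13.60 at 1 h, 13.82 and 13.99 at 3 h and 13.58 and 13.86 at 6 h. Both 0 h arrays were below all the others. It was higher by 0.64 (SE 0.153, adjusted p = 0.0155) at 1 h and by 0.89 (SE 0.153, adjusted p = 0.00519) at 3 h, where the brighter 201429_s_at changed by 0.09 and 0.02 with neither called. RPS10, which is mutated in some Diamond-Blackfan anaemia, behaved alike in value: 214001_x_at was higher by 0.97 (SE 0.11, adjusted p = 0.00198) at 3 h, and its brightest probe set changed by 0.02. RPS21 214097_at was higher by 0.58 (SE 0.157, adjusted p = 0.0258) at 1 h, beside 0.19 on 200834_s_at. RPL18 222297_x_at was higher by 0.39 (SE 0.0996, adjusted p = 0.0216) at 1 h, beside 0.37 (adjusted p = 0.0568) on its brighter probe set, and RPL35A 215208_x_at by 0.62 (SE 0.194, adjusted p = 0.0463) at 3 h, beside 0.03. None of these calls held with equal spike-in means, and RPL35A and RPS21 were then at -0.14 and -0.24 at 3 h. RPL35A 215208_x_at was below the filter on both 0 h arrays and passed it only through later arrays. The filter thus favoured a higher call for that probe set.

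RPL22 is deleted in some T-cell acute lymphoblastic leukaemias, and its 5 tested probe sets fell into 2 kinds. The dimmest, 221726_at, was at 8.47 and 8.40 at 0 h, 7.90 and 7.82 at 0.5 h, 7.84 and 7.59 at 1 h, 7.996 and 8.04 at 3 h and 7.50 and 8.03 at 6 h. All later arrays were below both 0 h arrays. It was called lower, with changes of -0.72 (SE 0.171, adjusted p = 0.0155) at 1 h and -0.67 (SE 0.171, adjusted p = 0.0235) at 6 h, and so was 214042_s_at, with -0.53 (SE 0.159, adjusted p = 0.0402) and -0.61 (SE 0.159, adjusted p = 0.0246). The 3 brighter probe sets, all named _x_at, changed by -0.14, -0.17 and -0.07 at 1 h and passed no test. RPS7 was likewise split: 200082_s_at was lower at every time, with changes of -0.45 (SE 0.107, adjusted p = 0.0237) at 0.5 h and -0.47 (SE 0.107, adjusted p = 0.0146) at 6 h, while 213941_x_at changed by -0.05 and -0.10. The RPL22 calls at 1 h were lost on leaving out either 0 h array or 1 h replicate 2, and that of 214042_s_at also without either array at 0.5 h or 6 h and with equal array medians (-0.24, adjusted p = 0.165). The RPS7 calls were lost at every time with equal array medians and without 0 h replicate 1, with changes of -0.32, -0.063, -0.081 and -0.23 at 0.5, 1, 3 and 6 h under that scaling, and those at 0.5 and 1 h also with equal spike-in means. Single further arrays ended them too: 0.5 h replicate 2 at 0.5 h, any array at 1, 3 or 6 h at 1 h, either 3 h array at 3 h and 6 h replicate 1 at 6 h. The RPL22 calls at 6 h were lost with equal array medians, and without 0 h replicate 1 or 6 h replicate 1, with 6 h replicate 2 also deciding 214042_s_at and 0 h replicate 2 221726_at.

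**Figure D4:**
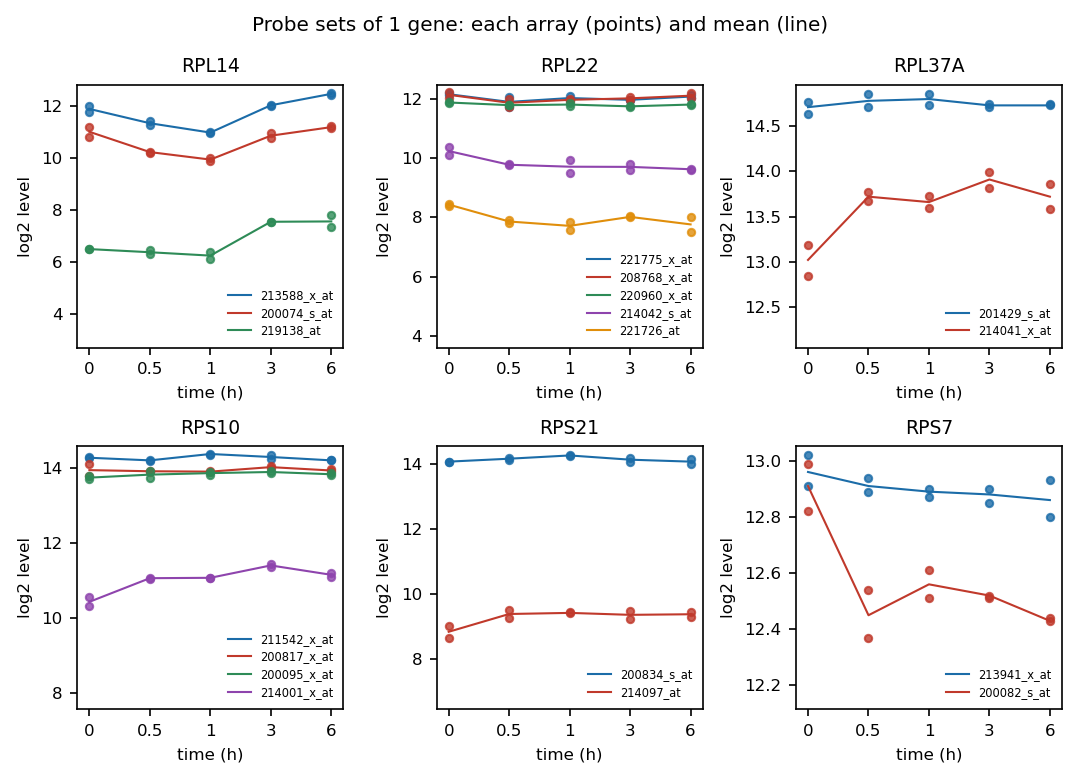
Log2 level (vertical axis, square root of the deposited value) at each time in hours (horizontal axis, times evenly spaced) for every tested probe set of RPL14, RPL22, RPL37A, RPS10, RPS21 and RPS7, with 1 point per array, lines through the means and 1 colour per probe set. In RPL37A, RPS10 and RPS21 the dimmer probe set rises from 0 h, a rise not called with equal spike-in means, while no brighter one was called; at 3 h RPL37A changed by 0.89 on one and 0.02 on the other.

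Some genes of known clinical or signalling interest passed no test. RPL11 binds MDM2 and activates p53 when ribosome assembly fails; its log2 levels were 12.52 and 12.23 at 0 h, 12.24 and 11.94 at 0.5 h, 12.11 and 12.22 at 1 h, 12.18 and 12.20 at 3 h and 12.33 and 12.13 at 6 h, the 0 h and 6 h arrays overlapped, and the change at 1 h was -0.21 (SE 0.147, adjusted p = 0.352). RPS19, the gene most often mutated in Diamond-Blackfan anaemia, changed by 0.14 (SE 0.128, adjusted p = 0.478) at 1 h on its brightest probe set. RPS3, which lies at the mRNA entry of the 40S particle, changed by 0.22 (SE 0.108, adjusted p = 0.184), and RPL41, the shortest of the proteins, by 0.13 (SE 0.0983, adjusted p = 0.4). FAU encodes a 40S protein fused to a ubiquitin-like domain; its log2 levels were 11.70 and 11.80 at 0 h, 11.88 and 12.16 at 0.5 h, 12.16 and 12.09 at 1 h, 12.12 and 11.91 at 3 h and 12.07 and 11.87 at 6 h, all later arrays were above both 0 h arrays, and the change at 1 h was 0.37 (SE 0.135, adjusted p = 0.076). A p that misses the threshold does not show that these levels were equal. RPL5, RPL10, RPL13A, RPL23, RPLP0, RPSA and RPS27A have no member, since no tested probe set carries their symbol alone.

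**Figure D5:**
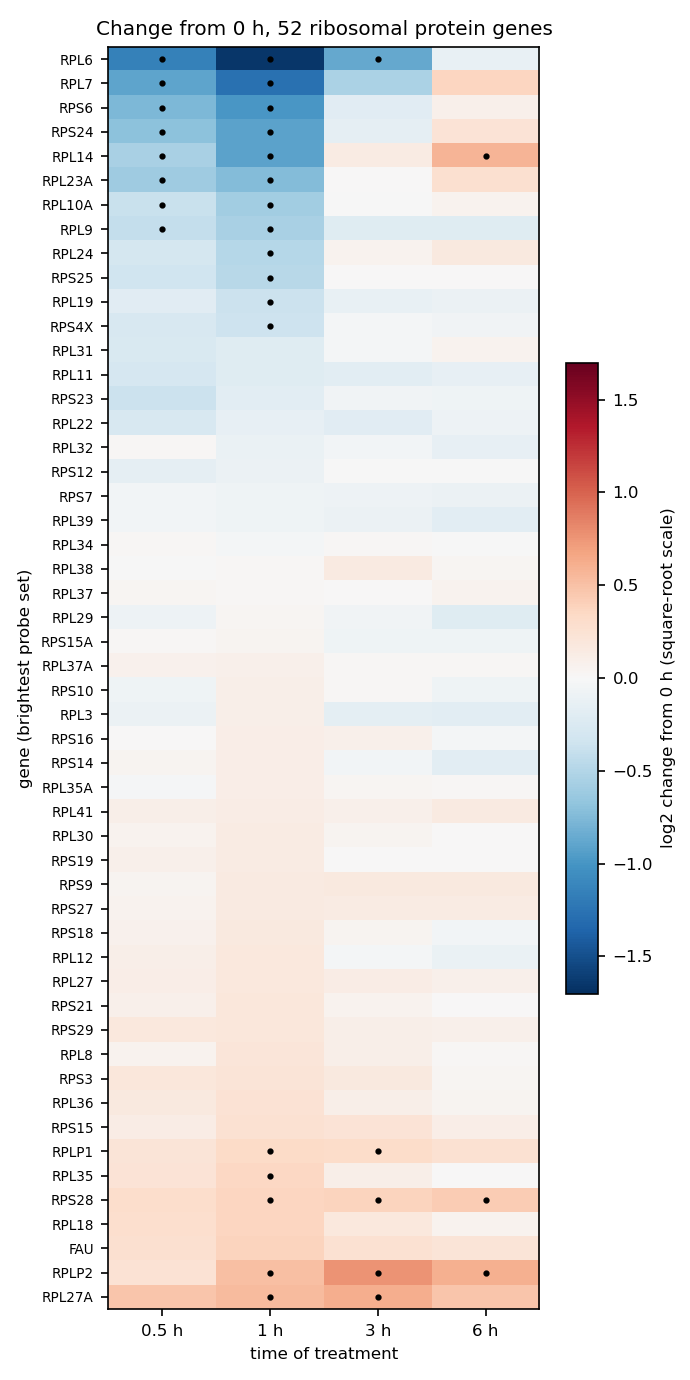
Change from 0 h (colour, log2 on the square-root scale, blue lower and red higher) at 4 times (horizontal axis) for the brightest probe set of each of the 52 genes (vertical axis, ordered by the change at 1 h), with a dot where called. RPL6 is lowest at 1 h (-1.65), 12 genes are called lower and 5 higher there, the higher calls being lost with equal spike-in means, and RPLP2 is highest at 3 h (0.76, and -0.00078 with equal spike-in means).

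Another 47 tested probe sets carry a ribosomal protein symbol together with others, often of RNAs encoded in its introns, and were not members. Of these, 15 (31.9%) were lower and 3 higher at 1 h, against 24.2% and 4.14% of all tested, with changes from -1.95 to 0.57. From 1 h to 6 h 14 were higher and 2 (4.26%) lower, against 12.2% and 11.7% of all tested. These counts were not refitted under other scalings or with arrays left out. Ribosomal protein genes have many near-identical processed pseudogenes, and 31 members are of the _x_at and 33 of the _s_at class, whose probes can match more than one transcript. Among the 14 members of neither class, 3 (21.4%) were lower and 2 (14.3%) higher at 1 h, beside 24% and 4.63% of the 1598 tested probe sets of neither class.

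A list of 20 other genes of the translation machinery, many of them TOP mRNAs, had 15 with a tested probe set. At 1 h 11 fell and 1 rose, with a median change of -0.90. At 0.5 and 3 h 9 and 8 fell, and at 6 h 1 fell and 1 rose. Of all tested probe sets, 15.1%, 24.2%, 26.4% and 21.6% were called lower at 0.5, 1, 3 and 6 h. At 1 and 6 h 4.14% and 4.07% were called higher. Shares of all tested with an array left out were not computed. Without 0 h replicate 1, 1, 6 and 1 fell at 0.5, 1 and 3 h, and at 6 h none fell or rose. Without replicate 2 of the later time, 2, 6 and 2 fell at 0.5, 1 and 3 h. Leaving out 6 h replicate 1 gave 0 calls at 6 h, and leaving out 0 h replicate 2 or 6 h replicate 2 gave 1 fall and 0 rises. Equal array medians left 4 falls and added 3 rises at 3 h, against 17.8% and 23.1% of all tested. Equal spike-in means gave 13 falls of 15 at 3 h, near the 86.4% of all tested. The median at 1 h was -0.61 with equal array medians and -1.15 with equal spike-in means. That at 6 h was 0.14, but -0.49 with equal spike-in means, where 7 fell, against 69.8% of all tested. With equal array medians 7 rose and 1 fell at 6 h, against 14.3% and 14.1%. From 1 h to 6 h 9 rose, against 12.2% of all tested, and 5 did so with equal spike-in means, against 6.27%. The list was chosen with results of these data known and is not independent evidence.

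Within it, EIF3E, a subunit of the initiation factor that binds the 40S particle, had a mean log2 level of 7.54 before and 5.46 after 1 h, then 8.71 after 6 h. It changed by -2.08 (SE 0.294, adjusted p = 0.0017) at 1 h. NPM1, a nucleolar chaperone of ribosome assembly, changed by -1.62 (SE 0.196, adjusted p = 0.00113), NACA, which meets new protein chains at the tunnel exit, by -1.38 (SE 0.198, adjusted p = 0.00185), and EEF1A1, which brings aminoacyl-tRNA to the ribosome, by -0.90 (SE 0.106, adjusted p = 0.00108). These 4 calls held under all 19 alternatives. The elongation factor EEF2 changed by 0.06 (SE 0.126, adjusted p = 0.761), so the list did not move as 1 block.

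Of 8 regulators of TOP mRNAs and of ribosome production, 5 had a tested probe set. DDIT4, an inhibitor of mTOR complex 1, was lower at 0.5 h, at -1.33, and then higher at 3 and 6 h, by 2.67 (SE 0.142, adjusted p = 0.000266) and 3.40 (SE 0.142, adjusted p = 9.67e-06). MYC, a transcription factor that drives ribosomal protein genes, fell by 0.66 at 3 h and by 1.33 (SE 0.107, adjusted p = 0.000498) at 6 h. LARP1, which binds the TOP tract, changed by -0.43 (adjusted p = 0.137) at 1 h and fell by 0.83 (adjusted p = 0.0151) at 6 h, a call lost without 0 h replicate 1 or 6 h replicate 1. The cap-binding EIF4E fell by 1.22 (adjusted p = 0.00653) at 1 h, a call lost without 0 h replicate 1 or 1 h replicate 2.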

How the data were processed

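RNA from MOLT-4 cells was hybridised to Affymetrix human expression arrays. GCRMA made the deposited values from the arrays, per the submitters' processing notes, and its version and any later step are not given in the sources used here. The deposited values were entered as a score: they run to 238.1, which is neither log2 nor intensity, and their square roots, up to 15.43, lie in the range of log2 GCRMA values and were read as log2. Scale therefore stays an inference, and a fold rests on it. No depth or detection call was used, and the number of arrays limits the precision.

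Probe sets other than 68 controls with a square root of at least 5 on at least 2 of 10 arrays were tested in R 4.3.3 with the moderated fit of limma 3.58.1. Time was the only factor, with 5 residual degrees of freedom and no pseudocount, and p-values were adjusted by Benjamini-Hochberg over 4276 probe sets. The script was tested on simulated data. Genes were named by a rule: per time, the called members with the largest changes, at most 6 in each direction, probe sets over 0.5 from the brightest of their gene, and a list of genes of interest; RPL9, RPL10A, RPL19, RPL23A, RPL24, RPL35, RPS4X, RPS24, RPS25 and RPS28 lie outside it and were chosen after their values were seen. Members and lists were chosen with earlier results of these data known. Replicate numbers are shared between times but did not pair the arrays: the correlation of deviations ran from -0.231 to 0.147 over 10 pairs of times, with 2 over 0.1. Symbols came from the platform annotation, and promoter windows from RefSeq.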

Additional observations from a re-analysis of the deposited data

How the results depend on the processing

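Each member call named in the report, and each call in the lists of other translation genes and regulators, was refitted under 19 alternatives, or 18 for RPL35A 215208_x_at, which a filter at 7 removed. Counts of members were refitted under 21, or 20 for the F test, and their medians under 19, with no median taken on log2 or untransformed deposited values. Counts are given in the order 0.5, 1, 3 and 6 h against 0 h, then 6 h against 1 h. As reported they were 4, 9, 9, 7 and 16 higher and 14, 20, 3, 3 and 0 lower, with 22 in the F test. With equal array medians they were 7, 36, 34, 22 and 15 higher and 9, 11, 1, 0 and 0 lower, with member medians of 0.14, 0.35, 0.33, 0.28 and -0.045. With equal spike-in means they were 0, 0, 0, 0 and 8 higher and 12, 16, 64, 39 and 1 lower, with medians of -0.26, -0.19, -0.74, -0.60 and -0.39 and 40 in the F test. That scaling turned the sign of RPL27A (-0.15), RPL35A (-0.14), RPLP1 (-0.45), RPLP2 (-0.00078), RPS21 (-0.24) and RPS28 (-0.38) at 3 h, of RPL14 213588_x_at (-0.054), RPLP2 (-0.033), RPS21 (-0.094) and RPS28 (-0.21) at 6 h, and of RPL9 (-0.036) from 1 h to 6 h. Quantile normalization again gave 14 higher at 1 h (17.9%, against 24% of all tested). It gave 1 lower at 3 h (1.28%, against 18.7%) and 3 lower from 1 h to 6 h (3.85%, against 13.7%). Its medians were 0.067 at 3 h and 0.024 from 1 h to 6 h. For the other fits below, the share of all tested probe sets called was not computed, so their counts are not read as results about the members. Without the filter there were 2, 4 and 5 higher at 0.5, 1 and 3 h, and 8, 0 and 1 lower at 0.5, 3 and 6 h. A filter at 7 gave 1 lower from 1 h to 6 h. On log2 of the deposited values there were 2, 5 and 4 higher at 0.5, 1 and 3 h and 1 lower at 3 h. Untransformed values gave 14 higher at 1 h, 11 higher at 6 h and 5 lower from 1 h to 6 h. With only the 4 arrays compared there were 1, 3, 4 and 4 higher, and 8 and 0 lower at 0.5 and 3 h. With 1 probe set per gene, 52 in all, there were 0, 5, 4, 3 and 10 higher and 8, 12, 1 and 0 lower at the 4 times, a median of 0.090 at 1 h and 12 in the F test. With the 14 members that are neither _x_at nor _s_at there were 1, 2, 2, 2 and 2 higher and 1, 3, 0 and 1 lower at the 4 times, a median of 0.10 at 3 h and 3 in the F test. The replicate block gave 5, 7, 7, 8 and 16 higher, 13, 19, 3, 3 and 0 lower and 23 in the F test, and moved no count by over 1.5 times. Leaving out each array in turn gave 0 to 5, 1 to 8, 4 to 7, 3 to 9 and 14 to 16 higher, 0 to 15, 13 to 18, 0 to 4, 0 to 3 and 0 to 0 lower, and 16 to 20 in the F test; medians ran from -0.050 to 0.041, 0.027 to 0.087, 0.0075 to 0.059, 0.026 to 0.058 and -0.020 to 0.014. The lone array then left at a time is assumed to vary like the others. The cause of these shifts was not tested, except that 1 probe set per gene and the 14 members hold fewer probe sets.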
